A study of Mus musculus with 8 samples.

Results

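The collagen gene family was described in whole corneas of mice that lack the glucocorticoid receptor in the corneal epithelium and in their control littermates. Members were the rows whose symbol is Col, a number, the letter a and a number, and rows at 0 in every library were to be dropped. The rule found 44 genes among 24918 entries, and 0 of them were at 0 throughout. The symbol pattern does not use measured values, although the members were chosen with earlier results of these data known. RNA of whole cornea was sequenced from male mice aged 3 months on a C57BL/6J/FVB background, with 4 libraries per genotype, each a pool of 4 to 6 corneas. Both genotypes carried floxed alleles of the receptor gene: GRflox controls were GRloxP/loxP-PAX6+/+ and lacked Cre, and corneaGRKO mice were GRloxP/loxP-PAX6Cre/+, with Cre under the Pax6 P0 promoter. Effects of Cre and of receptor loss therefore cannot be told apart, and stroma and endothelium, where most corneal collagen is made, were not the cells at which deletion was aimed. The libraries of each genotype are numbered 1, 3, 4 and 5 and are given below in that order. As each is a pool of its own, the p-values reflect how far pools differ.

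Collagens are triple-helical proteins of the extracellular matrix, built from chains that are each the product of a separate gene. In the corneal stroma, fibrils of type I and type V collagen lie in parallel layers of even, narrow spacing on which transparency depends, and type V is known to limit fibril diameter. Type VI forms beaded filaments between the fibrils, type IV the network of basement membranes, type VIII the lattice of the endothelial (Descemet) membrane, type VII the anchoring fibrils below the epithelium, and type XVII the transmembrane anchor of basal epithelial cells. FACIT collagens, such as types XII and XIV, are chains with interrupted helices that decorate fibril surfaces, and multiplexins are the basement membrane types XV and XVIII.

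The values are log2 normalized expression as the authors deposited them. They do not give library depth, for which the labels state only more than 40000000 reads per sample. Nr3c1, the targeted receptor gene, fell by 0.47 on the log2 scale (SE 0.064, limma adjusted p = 0.00767, n = 4 per group), with values of 11.07 to 11.34 in GRflox and 10.61 to 10.83 in corneaGRKO. Of the 44 collagen genes, 35 had a mean value of at least 5 and were tested. The other 9 (Col2a1, Col6a4, Col6a6, Col9a2, Col10a1, Col19a1, Col22a1, Col26a1 and Col28a1) lay below that level and were not tested. Col6a5 (mean over all libraries 5.03) stood just above it, through its corneaGRKO mean of 5.13 against 4.94 in GRflox, and Col28a1 just below it (4.76 in GRflox). Among those not tested, Col2a1, the main fibril chain of cartilage and vitreous, had values of 3.83, 3.82, 3.89 and 3.86 in GRflox and 3.97, 3.91, 4.00 and 3.99 in corneaGRKO, and the other 8 ranged from 0.75 to 4.92.

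In control corneas the highest collagen levels belonged to the anchor of the basal epithelium and to the main stromal fibril. Levels between genes are given per length, as the log2 value minus the log2 of the exon length in kb, which was taken from GENCODE M21. Col17a1, the epithelial anchor, was the highest (14.48), followed by Col1a2 (14.21) and Col1a1 (14.07), the chains of the main stromal fibril. Back on the linear scale, these 3 genes made up 26.1%, 21.7% and 19.6% of the summed collagen level per length in GRflox. Next came the type VI chain Col6a1 (12.74), the Descemet membrane chain Col8a2 (11.97), Col6a2 (11.72), Col12a1 (11.20), Col6a3 (11.12), the type V chains Col5a2 (11.10) and Col5a1 (10.48) and Col16a1, a FACIT chain (10.16). The library ranges of Col12a1, Col6a3 and Col5a2 overlapped on this scale. Within every GRflox library Col12a1 was above Col6a3 and Col5a2. The order of Col6a3 and Col5a2 changed between libraries and is not resolved. The basement membrane chains ran from Col4a1 (9.39) down to Col4a6 (7.43), and Col7a1 of the anchoring fibrils stood at 9.26. Chains known from cartilage were spread over the lower part of the order, from Col27a1 (6.61) and Col11a1 (6.54) through Col9a1 (4.89) and Col9a3 (4.32) to Col9a2 (1.88) and Col10a1 (0.60) per length, with Col11a2 and Col2a1 in between. Low values on the deposited scale are compressed, so the lower end of this order is approximate.

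**Figure D1:**
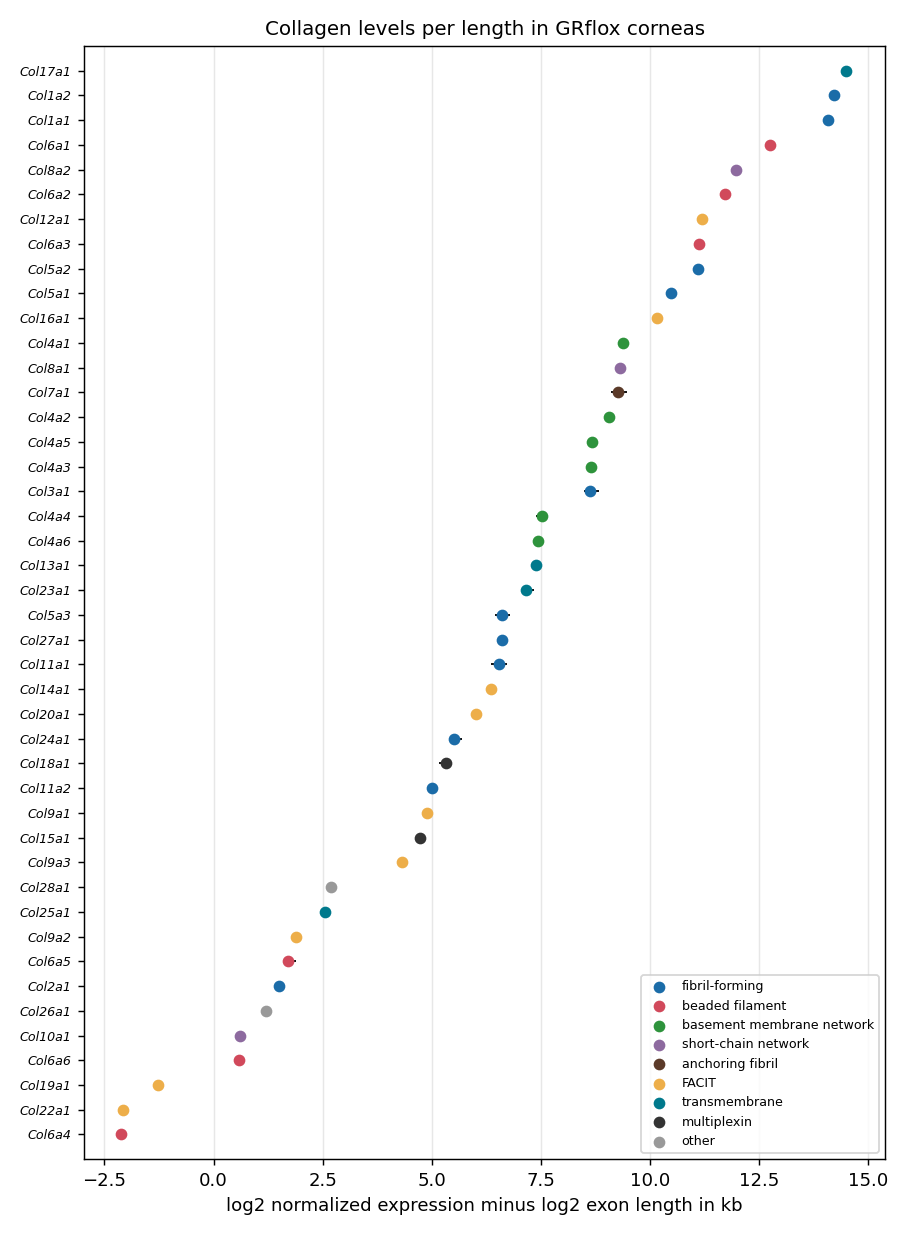
Level of each of the 44 collagen genes in GRflox corneas. Points are the means of 4 libraries on a log2 axis after subtracting the log2 of the exon length in kb, lines are the range of the libraries, and colours are structural classes; Col17a1, Col1a2 and Col1a1 lie above 14 and Col6a4 and Col22a1 below -2.

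Col5a1, Col6a2 and Col6a3 fell in corneaGRKO and Col23a1 rose. In the limma test over 13269 entries, 3 of the 35 tested collagen genes passed an adjusted p of 0.05 as lower (8.57%), where 0.52% of all entries did. As higher, 1 of 35 passed (2.86%), where 1.33% of all entries did. The median log2 difference of the 35 genes was -0.07, against -0.01 over all tested entries. Of the 35, 21 were below 0, where 54.7% of all tested entries were. The 4 corneaGRKO values lay below all 4 GRflox values in 10 of the 35 genes (28.6%, against 4.61% of all entries) and above them in 2 (5.71%, against 5.89%). Before adjustment, 19 of the 35 had a limma p under 0.05 (54.3%), where 16.5% of all entries did, and the unadjusted counts of classes and lists are to be read against that share. Members of a family share cell types and pathways, so these shares describe the genes and are not a test of the family. In bulk RNA, fewer cells of a type and less RNA per cell cannot be told apart.

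**Figure D2:**
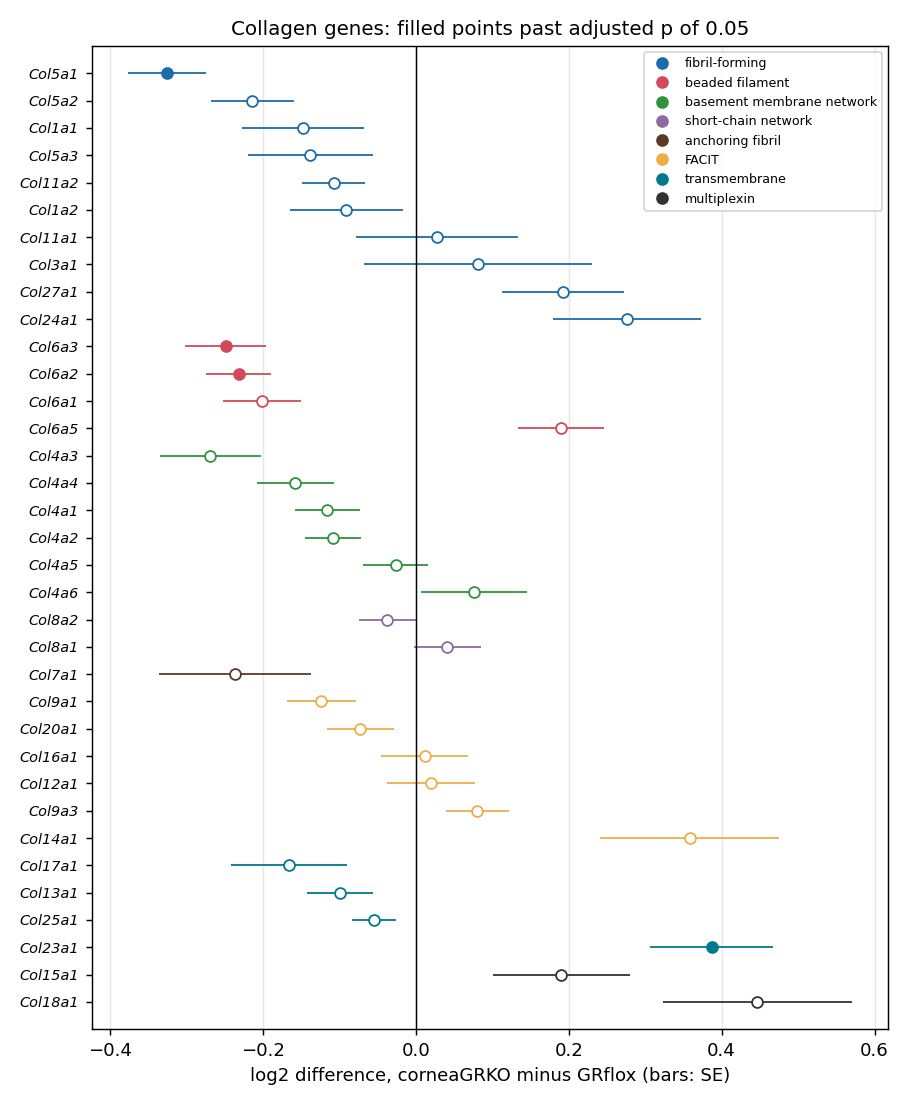
Difference between genotypes for the 35 tested collagen genes, grouped by class. The axis is corneaGRKO minus GRflox on the log2 scale, bars are limma SEs with 4 libraries per group, and filled points (Col5a1, Col6a2, Col6a3 and Col23a1) passed an adjusted p of 0.05; most type IV, V and VI chains lie left of 0 and the multiplexins right of it.

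The promoters of the 4 genes past the threshold are shown so that their base composition and motifs can be compared. They are the 250 bases before the RefSeq start on GRCm38.p6, read 5′ to 3′ on the gene's strand, and capitals mark the GC box letters GGGCGG on either strand.
Col5a1 (chr2:27886175-27886424, plus strand): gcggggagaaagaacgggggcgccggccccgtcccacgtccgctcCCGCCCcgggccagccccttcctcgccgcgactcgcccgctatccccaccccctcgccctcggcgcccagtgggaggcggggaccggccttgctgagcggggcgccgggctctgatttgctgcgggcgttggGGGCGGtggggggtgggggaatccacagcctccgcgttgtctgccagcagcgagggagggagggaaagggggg
Col6a2 (chr10:76623631-76623880, minus strand): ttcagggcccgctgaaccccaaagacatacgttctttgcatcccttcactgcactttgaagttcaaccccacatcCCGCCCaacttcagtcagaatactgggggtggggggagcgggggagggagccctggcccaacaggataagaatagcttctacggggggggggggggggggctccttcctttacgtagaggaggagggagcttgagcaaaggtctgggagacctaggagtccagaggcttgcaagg
Col6a3 (chr1:90843972-90844221, minus strand): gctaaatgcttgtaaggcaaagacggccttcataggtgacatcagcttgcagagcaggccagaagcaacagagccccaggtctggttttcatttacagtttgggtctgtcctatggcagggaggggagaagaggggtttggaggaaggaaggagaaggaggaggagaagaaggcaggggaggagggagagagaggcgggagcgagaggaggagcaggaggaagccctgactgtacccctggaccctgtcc
Col23a1 (chr11:51289670-51289919, plus strand): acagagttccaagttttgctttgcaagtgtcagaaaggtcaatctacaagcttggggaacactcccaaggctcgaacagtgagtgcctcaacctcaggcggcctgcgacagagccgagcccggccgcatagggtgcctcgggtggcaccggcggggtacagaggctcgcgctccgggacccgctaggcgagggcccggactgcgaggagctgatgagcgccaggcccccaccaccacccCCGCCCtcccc
The Col5a1 sequence was 76.4% G and C and held 2 GC boxes, while Col6a2 (59.2%) and Col23a1 (66%) held 1 each and Col6a3 (57.2%) 0. The 4 windows overlapped 0 exons of the GENCODE M21 basic set. Among 35 collagen genes with an entry in the promoter table, 60% held a GC box, against 33% of 27025 promoters of the same length, and the median G and C content was 59.2% against 52%. A TATA box (TATAAA) was present in 14.3% of collagen promoters and 13% of all, and a CCAAT box (CCAAT) in 34.3% and 34.5%. The half-site of the glucocorticoid response element (AGAACA) was found in Col9a1 and Col20a1 alone (5.71%, against 16.1% of all promoters), and the full letters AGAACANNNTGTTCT in 0 of the 35 and in 1 of all promoters. All motifs were searched on both strands, and the full element contains the half-site. A missing match says only that these letters are not in this window.

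The type V chain Col5a1 (Entrez gene 12831, chromosome 2), which nucleates stromal fibrils, had the largest decrease of the family. Its values were 13.61, 13.52, 13.46 and 13.63 in GRflox and 13.15, 13.25, 13.20 and 13.32 in corneaGRKO. The groups did not overlap. The mean went from 13.56 ± 0.0775 to 13.23 ± 0.072 (SD, n = 4), and Col5a1 fell by 0.33 (SE 0.0512, limma adjusted p = 0.0127). Its partner chain Col5a2 had values of 13.86, 13.71, 13.90 and 13.84 in GRflox and 13.52, 13.64, 13.71 and 13.59 in corneaGRKO. The highest corneaGRKO library reached just under the lowest GRflox library, and the difference of -0.21 (SE 0.0545) did not pass (limma adjusted p = 0.0829). Col5a3, the third type V chain, overlapped between the groups (difference -0.14, limma adjusted p = 0.429). The call of Col5a1 was lost when GRflox replicate 1 or 5 was left out (limma adjusted p of 0.0509 and 0.0572). It was also lost without corneaGRKO replicate 3 (0.0502) and without corneaGRKO replicates 1 and 4 together (0.0547). These values lie just above 0.05.

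The type I chains, which make up the bulk of the same fibrils, did not pass. Col1a1 had values of 16.73, 16.64, 16.54 and 16.63 in GRflox and 16.34, 16.53, 16.67 and 16.42 in corneaGRKO (difference -0.15, SE 0.0798, limma adjusted p = 0.387). Col1a2 had values of 16.68, 16.63, 16.59 and 16.63 in GRflox and 16.40, 16.57, 16.72 and 16.48 in corneaGRKO (difference -0.09, adjusted p = 0.556; 0.00106 with quantile normalization). For both chains corneaGRKO replicates 1, 3 and 5 lay below all GRflox libraries, with replicate 1 the lowest of all 8. Only corneaGRKO replicate 4 reached into or above the GRflox range. Within a library, Col5a1 minus Col1a1 was -3.12, -3.12, -3.08 and -3.00 log2 units in GRflox and -3.18, -3.28, -3.47 and -3.10 in corneaGRKO, so the groups overlapped in this ratio, which was chosen after the values were seen. Col1a1 minus Col1a2 was 0.00 ± 0.0409 in GRflox and -0.05 ± 0.0096 in corneaGRKO, also with overlap.

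All 3 main chains of type VI collagen were lower in every corneaGRKO library than in any GRflox library, and 2 of them passed the test. Col6a2 (Entrez gene 12834, chromosome 10) had values of 14.36, 14.27, 14.28 and 14.33 in GRflox and 14.01, 14.07, 14.12 and 14.12 in corneaGRKO. It fell by 0.23 (SE 0.0428, limma adjusted p = 0.0288), from 14.31 ± 0.043 to 14.08 ± 0.0525. Col6a3 (Entrez gene 12835, chromosome 1), the longest of the 3 chains, had values of 14.54, 14.47, 14.63 and 14.59 in GRflox and 14.20, 14.33, 14.31 and 14.38 in corneaGRKO. It fell by 0.25 (SE 0.0527, limma adjusted p = 0.0464), which is close to the threshold. Col6a1 had values of 14.78, 14.71, 14.82 and 14.80 in GRflox and 14.46, 14.58, 14.65 and 14.62 in corneaGRKO, and its difference of -0.20 (SE 0.0514) did not pass (limma adjusted p = 0.0829). The ratio of Col6a1 to Col6a2, neighbouring genes on chromosome 10, was 0.47 ± 0.0525 log2 units in GRflox and 0.50 ± 0.034 in corneaGRKO, with overlap. Col6a5, a further type VI chain, had values of 4.90, 5.11, 4.89 and 4.85 in GRflox and 5.12, 5.23, 5.09 and 5.07 in corneaGRKO. Its difference of 0.19 did not pass (limma adjusted p = 0.123). It passed when GRflox replicate 3, which lay within the corneaGRKO range, was omitted (0.0342). Col6a5 reached the level for testing only through its corneaGRKO mean of 5.13, against 4.94 in GRflox. Col6a2 no longer passed when GRflox replicate 1, 3 or 5 was omitted (limma adjusted p of 0.0977, 0.0612 and 0.101), when corneaGRKO replicate 3 or 5 was omitted (0.102 and 0.0586), when corneaGRKO replicates 1 and 4 were both omitted (0.069), or after quantile normalization (0.0535). The call of Col6a3 was lost whichever single library was left out (0.0504 to 0.153), without corneaGRKO replicates 1 and 4 together (0.147), and with quantile normalization (0.0557) or median centring (0.06).

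Markers of keratocytes, the stromal cells that make types I, V and VI, were read beside these decreases. Of 6 keratocyte markers outside the family, 0 passed the threshold as higher and 1 as lower in limma. An unadjusted p under 0.05 was found for 3. The one that passed was Kera, a proteoglycan core protein of the stroma (-0.29, limma adjusted p = 0.0369). Cd34 was also lower in every corneaGRKO library (-0.15, limma adjusted p = 0.102), and Ptgds was higher in every one (0.38, adjusted p = 0.185). The summed level of the list was 17.24 to 17.35 log2 units in GRflox and 17.23 to 17.40 in corneaGRKO, and 0 markers were at 0. The list mean stood 0.05, -0.06, 0.06 and -0.06 from the GRflox mean in corneaGRKO replicates 1, 3, 4 and 5, and averages these opposite differences. The part of this list in the collagen decreases was not tested.

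**Figure D3:**
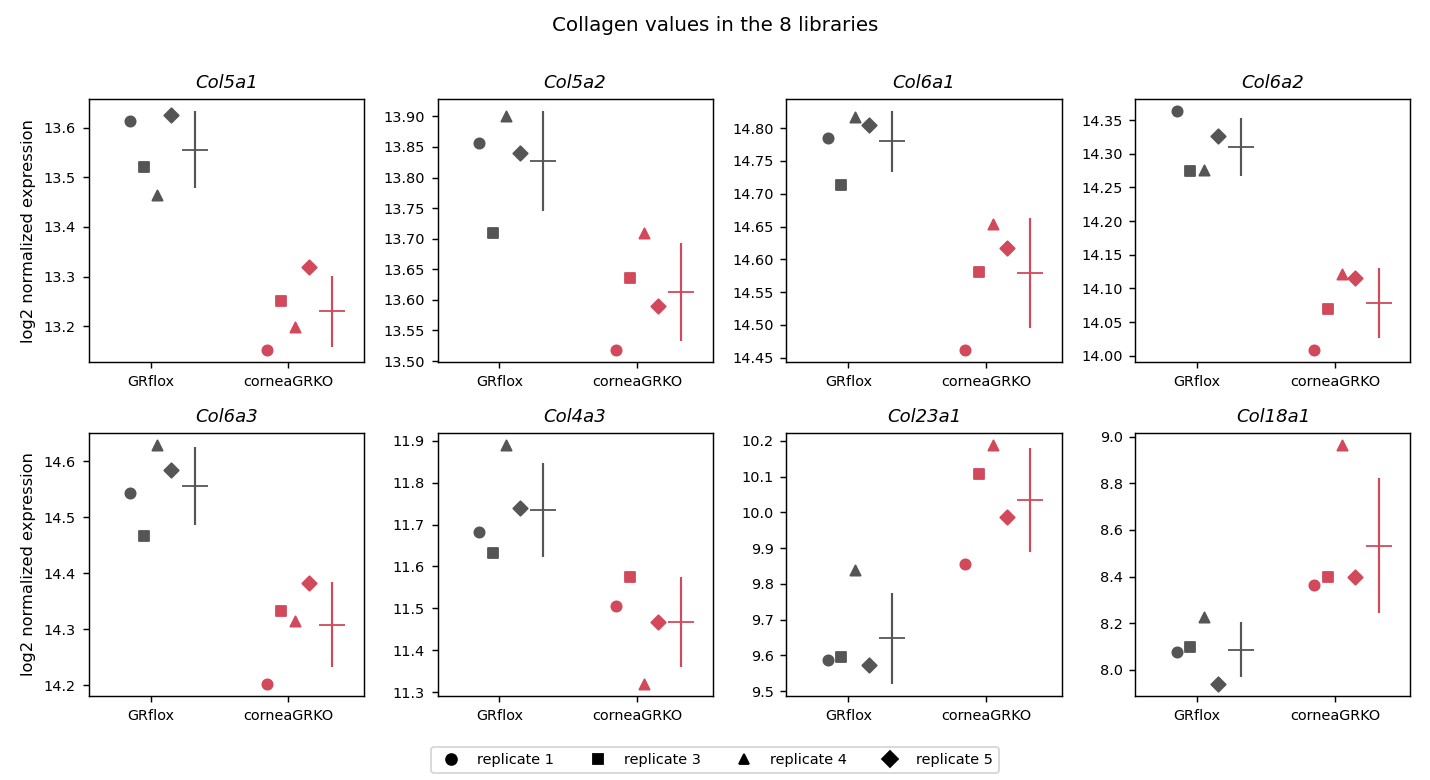
Log2 normalized expression of 8 collagen genes in each library; markers give the replicate number, and the bar beside each group is its mean with SD (n = 4). Col5a1, Col5a2, Col6a1, Col6a2, Col6a3 and Col4a3 are lower in every corneaGRKO library and Col23a1 and Col18a1 higher; the vertical axes differ between genes and do not start at 0.

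Among other fibril-forming genes, Col24a1, expressed in developing bone and cornea in the mouse, had the largest positive difference (0.28, SE 0.0968, limma adjusted p = 0.185). Its values were 8.26, 8.26, 8.52 and 8.39 in GRflox and 8.44, 8.73, 8.87 and 8.48 in corneaGRKO. Col27a1, known from cartilage, had values of 9.46, 9.43, 9.67 and 9.59 in GRflox and 9.53, 9.83, 9.88 and 9.69 in corneaGRKO (0.19, limma adjusted p = 0.265). In both, corneaGRKO replicates 3 and 4 were above all GRflox libraries and replicate 1 was within their range. Replicate 5 was above them too for Col27a1 and within their range for Col24a1. Col3a1, abundant in skin, vessel walls and healing tissue, ranged more widely in corneaGRKO than any other tested member, at 10.87, 11.53, 11.45 and 10.89, against 11.12, 11.05, 11.30 and 10.95 in GRflox. Its difference of 0.08 did not pass (limma adjusted p = 0.806) and was -0.03 without corneaGRKO replicate 3. Col3a1 and Col5a2 are neighbours on chromosome 1. Col11a1 (0.03, or -0.03 without GRflox replicate 1) and Col11a2 (-0.11), minor fibril chains of cartilage, did not pass either, although Col11a2 was lower in every corneaGRKO library.

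Of the 6 basement membrane chains 0 passed in limma, and 4 had an unadjusted p under 0.05 (16.5% of all entries did), all with negative differences. Col4a3 had the largest difference (-0.27, SE 0.0661, limma adjusted p = 0.0761), with values of 11.68, 11.63, 11.89 and 11.74 in GRflox and 11.51, 11.57, 11.32 and 11.47 in corneaGRKO. The groups did not overlap, and the highest corneaGRKO library was replicate 3. Col4a4, its partner in the same network, had values of 10.86, 10.73, 10.93 and 10.91 in GRflox and 10.76, 10.73, 10.63 and 10.67 in corneaGRKO (-0.16, limma adjusted p = 0.151). Col4a1 and Col4a2, the chains of nearly all basement membranes, lie beside each other on chromosome 8 and are read in opposite directions. Col4a1 had values of 12.16, 12.07, 12.17 and 12.06 in GRflox and 11.98, 12.09, 11.96 and 11.97 in corneaGRKO, where replicate 3 reached the GRflox range. Their differences were -0.12 (SE 0.0426, limma adjusted p = 0.203) and -0.11 (SE 0.0369, adjusted p = 0.174). The ratio of Col4a1 to Col4a2 was the steadiest of the pairs in GRflox, at 0.36 ± 0.0169 log2 units, and was 0.35 ± 0.0449 in corneaGRKO. Col4a5 (-0.03; 0.00297 without GRflox replicate 4) and Col4a6 (0.08) of the X chromosome did not pass. Col4a6 had values of 10.12, 10.11, 10.27 and 10.17 in GRflox and 10.08, 10.23, 10.44 and 10.22 in corneaGRKO, with replicate 4 alone above all GRflox libraries. The ratio of Col4a5 to Col4a6 was 1.22 ± 0.0209 log2 units in GRflox and 1.22, 1.14, 0.96 and 1.15 in corneaGRKO, lowest in replicate 4.

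The Descemet membrane chains Col8a1 and Col8a2 did not pass, and their groups overlapped. Col8a2 had values of 14.13, 14.05, 14.10 and 14.07 in GRflox and 14.06, 14.05, 14.07 and 14.02 in corneaGRKO (-0.04, SE 0.037, limma adjusted p = 0.636). Col8a1 had values of 11.58, 11.62, 11.76 and 11.65 in GRflox and 11.64, 11.73, 11.71 and 11.70 in corneaGRKO (0.04, SE 0.0434, limma adjusted p = 0.65). Both are made by the corneal endothelium, whose 4 other markers had summed levels of 15.17 to 15.40 in GRflox and 15.08 to 15.19 in corneaGRKO, with 0 of 4 past the threshold in limma (3 at an unadjusted p under 0.05) and 0 at 0. The list mean stood at -0.12, -0.15, -0.18 and -0.13 from its GRflox mean in corneaGRKO replicates 1, 3, 4 and 5, and its part in the Col8a1 and Col8a2 values was not tested.

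Chains of the epithelial anchor, Col7a1 and Col17a1, were not past the threshold. Col7a1 had values of 12.52, 12.32, 12.68 and 12.34 in GRflox and 12.47, 12.24, 12.04 and 12.17 in corneaGRKO, a difference of -0.24 (SE 0.0992, limma adjusted p = 0.268). Col17a1 had values of 16.91, 16.89, 17.04 and 17.02 in GRflox and 16.86, 16.85, 16.61 and 16.88 in corneaGRKO. The groups did not overlap, but the difference of -0.17 (SE 0.0763) did not pass (limma adjusted p = 0.311). For both genes corneaGRKO replicate 4 was the lowest library. That library was also lowest in the corneal epithelial marker list (list mean -0.15 from the GRflox mean). The summed level of these 6 markers was 21.18 to 21.42 in GRflox and 20.90 to 21.36 in corneaGRKO. In limma 0 of 6 passed the threshold (1 at an unadjusted p under 0.05), and 0 were at 0. That 1 was Krt14, which was higher in every corneaGRKO library than in any GRflox library (difference 0.48) and highest in replicate 4 (14.73). The other markers had differences from -0.23 (Tkt) to -0.01 (Pax6), so the list mean averages opposite differences. The part of this list in the collagen values was not tested.

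Col23a1, a transmembrane collagen, was the single member to pass the threshold as higher. Its values were 9.59, 9.59, 9.84 and 9.57 in GRflox and 9.86, 10.11, 10.19 and 9.99 in corneaGRKO. The groups did not overlap, with GRflox replicate 4 standing apart from its group and just under corneaGRKO replicate 1. Col23a1 (Entrez gene 237759, chromosome 11) rose by 0.39 (SE 0.0801, limma adjusted p = 0.0441), from 9.65 ± 0.128 to 10.03 ± 0.145. It no longer passed when GRflox replicate 1, 3 or 5 was omitted (limma adjusted p of 0.126, 0.115 and 0.145), when corneaGRKO replicate 3, 4 or 5 was omitted (0.142, 0.0634 and 0.079), or after quantile normalization (0.0529). The other transmembrane collagens besides Col17a1 were Col13a1, found at cell contacts and the neuromuscular junction (-0.10, limma adjusted p = 0.286), and Col25a1 of neurons (-0.05, adjusted p = 0.365).

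Col18a1, whose C-terminal fragment endostatin inhibits vessel growth, had the largest difference of the family, 0.45 (SE 0.124), and did not pass (limma adjusted p = 0.107). Its values were 8.08, 8.10, 8.23 and 7.94 in GRflox and 8.36, 8.40, 8.97 and 8.40 in corneaGRKO. The groups did not overlap, and corneaGRKO replicate 4 stood well above the rest. Without that library the difference was 0.30 and passed (adjusted p = 0.0452). Col18a1 lies on chromosome 10 in the same region as Col6a1 and Col6a2, which differed in the opposite direction. Col15a1, the other multiplexin, had values of 7.36, 7.30, 7.38 and 7.21 in GRflox and 7.28, 7.62, 7.73 and 7.39 in corneaGRKO (0.19, limma adjusted p = 0.325).

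The FACIT chains held 0 limma calls among 6 tested, with 2 at an unadjusted p under 0.05, a cut that 16.5% of all entries passed. Col14a1, which binds fibril surfaces, had values of 8.96, 8.94, 9.17 and 9.14 in GRflox and 9.11, 9.49, 9.75 and 9.31 in corneaGRKO (0.36, SE 0.117, limma adjusted p = 0.158). It was within the GRflox range in corneaGRKO replicate 1 and above it in the other 3 libraries, and it passed without replicate 1 (0.0349). Col12a1, the most abundant FACIT chain, was 14.79, 14.73, 14.89 and 14.80 in GRflox and 14.69, 14.83, 14.93 and 14.83 in corneaGRKO (0.02, limma adjusted p = 0.887; -0.02 without corneaGRKO replicate 4). Col9a1, a cartilage chain also made in the eye, had values of 6.96, 6.92, 6.95 and 6.90 in GRflox and 6.71, 6.77, 6.86 and 6.89 in corneaGRKO, without overlap (-0.12, limma adjusted p = 0.2). Of the other FACIT chains, Col9a3 was 0.08, Col20a1 -0.07 and Col16a1 0.01 (-0.04 without corneaGRKO replicate 4).

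Within corneaGRKO, replicates 3 and 4 were the highest libraries for 19 of the 35 tested collagen genes (54.3%), against 18.8% of all tested entries, a pattern noticed after the values were seen. Of these 19 genes, 12 had a difference above 0, among them Col3a1, Col14a1, Col23a1 and Col24a1, and 7 below 0, among them Col1a1, Col1a2 and Col5a2. Among all tested entries 2492 had this pattern, of which 1911 had a difference above 0 and 581 below 0. Marker lists of other tissues were read in the same libraries. The list of limbal and scleral rim markers exceeded its GRflox mean by 0.18, 0.60, 0.83 and 0.16 in corneaGRKO libraries 1, 3, 4 and 5, and its summed level was 13.78 to 14.02 in GRflox and 14.14 to 14.93 in corneaGRKO, with 0 of 6 past the threshold in limma and 4 at an unadjusted p under 0.05. The conjunctival list (3 of 6 tested markers higher) stood at 0.34, 0.45, 0.93 and 0.37, with summed levels of 15.29 to 15.65 and 15.83 to 16.58. The pericyte and smooth muscle list (0 of 4 past the threshold in limma, 3 at an unadjusted p under 0.05) stood at 0.12, 0.31, 0.45 and 0.13, with summed levels of 9.53 to 9.70 and 9.77 to 10.16. Like the rim list, the conjunctival and pericyte lists were highest in replicates 4 and 3. The macrophage list (3 of 5 higher) stood at 0.18, 0.38, 0.59 and 0.30, with summed levels of 10.78 to 10.92 and 11.03 to 11.47. The blood vessel endothelial list (0 of 6 in limma, 3 unadjusted) stood at 0.02, 0.28, 0.19 and 0.04, with 10.49 to 10.65 and 10.49 to 10.67. Both were also highest in replicates 3 and 4. The pigment cell list (1 of 4 tested higher) stood at 0.32, 0.21, 0.50 and 0.16, with summed levels of 10.58 to 10.70 and 10.79 to 11.15. The photoreceptor list (0 of 5 tested past it in limma, 1 unadjusted) stood at 0.42, 0.12, 1.30 and 0.06, with 8.51 to 8.57 in GRflox and 8.61 to 10.39 in corneaGRKO. These 2 lists were highest in replicates 4 and 1, not 3. The lens list (0 of 5 in limma, 0 unadjusted) stood at 0.26, -0.56, -0.74 and 0.58, lowest in replicates 3 and 4, with 10.40 to 11.46 and 9.93 to 11.63. All 5 skeletal muscle markers were below the level for testing. None of the markers in these lists was at 0 in all libraries. Their part in the collagen differences was not tested. Without corneaGRKO replicates 1 and 4 together, 1 collagen gene was past the threshold as higher and 0 as lower, and 22 of the 35 differences were below 0. With these 2 of 8 libraries removed, the differences were -0.27 for Col5a1, -0.22 for Col6a2, -0.20 for Col6a3 and 0.40 for Col23a1, against -0.33, -0.23, -0.25 and 0.39 with all libraries. The removal keeps corneaGRKO replicate 3, so it is not a check on the pattern of replicates 3 and 4.

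**Figure D4:**
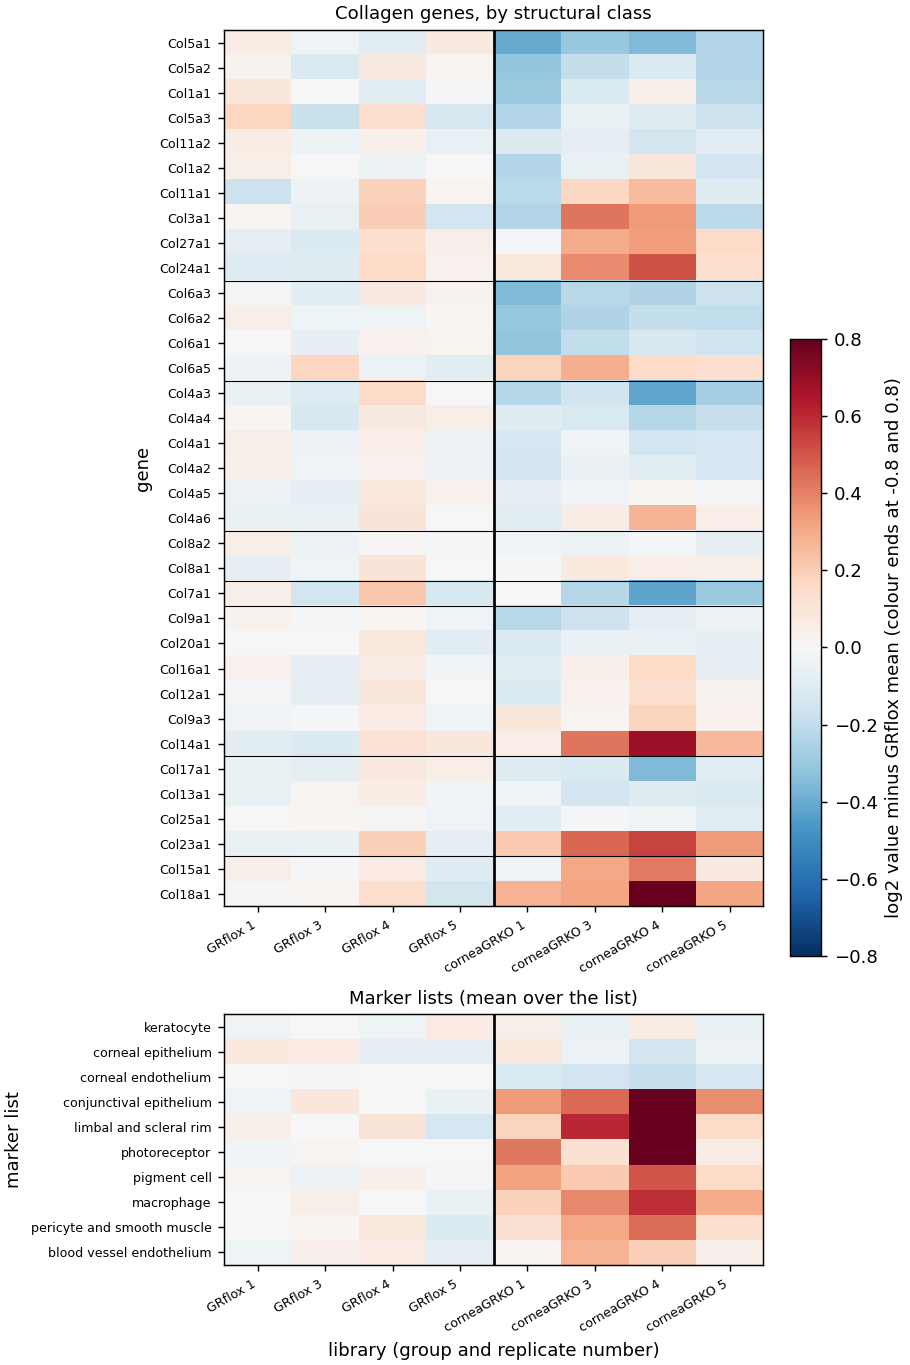
Log2 value minus the GRflox mean in each library (columns) for the 35 tested collagen genes (upper rows, in blocks by class) and for the mean of 10 marker lists (lower rows). Red is higher and blue lower, the colour scale ends at -0.8 and 0.8, and Col18a1 and the conjunctival, rim and photoreceptor lists exceed it in corneaGRKO replicate 4; Col5a1, Col5a2, Col5a3, Col6a1, Col6a2 and Col6a3 are blue across corneaGRKO, Col6a5 is red across it, and Col14a1, Col23a1 and Col24a1 are reddest in corneaGRKO replicates 3 and 4.

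The members were also read by level, without a test. Of 10 tested members with a mean value above 13, 9 were lower in corneaGRKO (median -0.18), the exception being Col12a1. Between 10 and 13 the median of 10 members was -0.07, and between 5 and 10 the median of 15 members was 0.08, with 6 of them lower. Over all tested entries the medians in the same ranges were -0.02, -0.01 and -0.01.

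Genes that modify, fold, process and bind collagen were mostly not past the threshold. Plod1, lysyl hydroxylase of the triple helix, was the 1 gene of these 5 lists to pass. Its values were 12.06, 11.87, 11.82 and 11.92 in GRflox and 11.53, 11.55, 11.54 and 11.59 in corneaGRKO, and it fell by 0.36 (SE 0.0495, limma adjusted p = 0.00767). The groups did not overlap, and the call was kept in each of the 19 alternatives (adjusted p up to 0.0354). The other 14 of 15 prolyl and lysyl modification genes did not pass, and the list median was -0.0033. Of 6 chaperone and export genes 0 passed in limma, also before adjustment (median -0.05), with Fkbp14, a prolyl isomerase, having the smallest adjusted p (0.369). Of 7 tested procollagen processing genes 0 passed (median 0.04, 2 at an unadjusted p under 0.05, where 16.5% of all entries were). Pcolce2, an enhancer of procollagen C-proteinase, was above GRflox in every corneaGRKO library, at 8.66, 8.82, 9.44 and 8.82 against 8.52, 8.54, 8.37 and 8.51 (difference 0.45, limma adjusted p = 0.141). Of 5 crosslinking genes 0 passed (median 0.02, 2 at an unadjusted p under 0.05). These 2 differed in opposite directions, the lysyl oxidase Loxl2 by -0.16 (limma adjusted p = 0.116) and Loxl4 by 0.33 (limma adjusted p = 0.149). Of 10 collagen receptor genes 0 passed (median -0.0045, 3 at an unadjusted p under 0.05). Lair1, an inhibitory receptor of leukocytes, stood at 0.10 (limma adjusted p = 0.0828). It reached the level for testing only through its corneaGRKO mean of 5.08, against 4.98 in GRflox.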

How the data were processed

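Expression was measured in 8 whole-cornea libraries, and the table of 24918 entries holds log2 values normalized and deposited by the authors. The tools that the authors list are Bowtie2, HTSeq and DESeq2, without versions in the submitters' processing notes. The build is mm9 in those notes and mm10 in the labels' protocols, so the only coordinates printed are those of the RefSeq promoter table. The step that made the log2 values is not stated, and low values vary little, so differences of weak genes may be understated.

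The 13269 entries whose mean reached 5 entered a two-sided limma test (version 3.58.1, R 4.3.3) of group alone, with a mean-variance trend in the prior and p-values adjusted over all of them by Benjamini-Hochberg. Values per library are given, by rule, for members past the threshold, for the extremes and the highest member of each class, and for members whose call changed with the processing; other members and Pcolce2 were chosen after their values were seen. Members, gene lists and alternative settings were chosen with earlier results of these data known. Older symbols were matched through RefSeq gene IDs. The fit was checked on simulated data. The smallest median difference between any pair of libraries was 0.0427, so no library was a duplicate. Of 19 alternative settings, 1 was added after the data were seen, the removal of a trend on GC content and length.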

Additional observations from a re-analysis of the deposited data

Results flagged for a closer look

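In 110 groups of 4 libraries (44 collagen genes, Plod1, Nr3c1 and 9 chain ratios, in each genotype), 7 held a library far from the other 3, where chance gives about 1 in 20. In corneaGRKO, replicate 4 was low for Col17a1 (16.61, others 16.85 to 16.88) and high for Col18a1 (8.97, others 8.36 to 8.40), and replicate 3 was high for Col4a1 (12.09, others 11.96 to 11.98). In GRflox, replicate 4 was high for Col23a1 (9.84, others 9.57 to 9.59) and replicate 3 for Col6a5 (5.11, others 4.85 to 4.90). Replicate 1 of GRflox stood apart for Col22a1 (1.11, others 1.10) and Col19a1 (0.861, others 0.869 to 0.870), both below the level for testing and differing by little.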

How the results depend on the processing

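With the replicate number as a block, 663 entries passed instead of 245, 4 collagen genes as higher (Col14a1, Col18a1, Col23a1 and Col6a5) and 3 as lower. Deviations of same-numbered libraries correlated at 0.51, -0.28, 0.26 and 0.06, and only those of replicate 1 were each other's best match. These correlations do not settle whether the numbers pair the libraries, so the fit with a block is no measure of strength. Library weights gave 1980 entries, with 49.1% of calls higher instead of 71.8%, and 5 higher and 6 lower collagen genes; the weights come from the same libraries. Quantile normalization gave 0 higher and 1 lower collagen genes, and no filter gave 2 higher, adding Col2a1 (0.12, limma adjusted p = 0.0496). Removing a GC and length trend gave 5 lower, adding Col4a3 and Col5a2. Leaving out corneaGRKO replicates 1 and 4 gave 0 lower, with differences of -0.27, -0.217 and -0.199 for Col5a1, Col6a2 and Col6a3. Leaving out single libraries gave 68 to 574 entries, 0 to 2 higher and 0 to 2 lower collagen genes. None of the 4 collagen calls held in every alternative: Col5a1 passed in 15 of 19, Col6a2 and Col23a1 in 12 and Col6a3 in 8, while their directions did not change in any. Direction reversed in 14 cases over 6 uncalled genes near 0: Col1a2 with quantile normalization (0.00106); Col4a5 with library weights (0.0126) and without GRflox replicate 4 (0.00297); Col16a1 without corneaGRKO replicates 1 and 4 (-0.013), GRflox replicate 3 (-0.0112) or corneaGRKO replicate 4 (-0.0382); Col11a1 without GRflox replicate 1 (-0.0294), corneaGRKO replicate 3 (-0.0187) or 4 (-0.0484); Col12a1 without GRflox replicate 3 (-0.00411), corneaGRKO replicate 4 (-0.0154) or with the GC and length trend removed (-0.00143); Col3a1 without corneaGRKO replicate 3 (-0.0337) or 4 (-0.00519). Over the omissions of single libraries these ranged from -0.0484 to 0.108 for Col11a1, -0.0154 to 0.0621 for Col12a1, -0.0382 to 0.045 for Col16a1, -0.0337 to 0.187 for Col3a1 and -0.0498 to 0.00297 for Col4a5. The cause was not tested. No scaling moved the median of all entries by over 0.1.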
